A study of Mus musculus with 12 samples.

Results

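The lysosome's working parts were followed in mouse alveolar epithelial type 2 cells (AEC2), the cells of the lung that make and store surfactant. The set holds 45 genes, chosen by name, of the 16080 genes measured: 9 proteases, 10 glycosidases, 3 sulfatases, 6 lipid hydrolases and their activator proteins, 5 membrane proteins, and 12 subunits or accessory proteins of the vacuolar proton pump (V-ATPase), of which 6 belong to the V1 sector and 6 to the V0 sector or its accessory proteins. All 45 were found in the data, and every one had counts in every library. RNA of isolated AEC2 was sequenced in 12 libraries, 4 per genotype, to ask how transcription in these cells changes once a mutant form of surfactant protein C (SP-C), the product of Sftpc, is expressed.

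All mice were female, of strain Bl6, and at postnatal day 56. The 3 groups were SP-C WT, SP-C C185Gneo, which the series calls a hypomorphic control, and SP-C C185G, which carries a cysteine substitution in the BRICHOS domain of the SP-C precursor. Per the labels, the mice of all groups, WT included, received tamoxifen at 200 mg per kg by intraperitoneal injection on 2 days, and the cells were isolated on day 7. What drives recombination, and in which cells, is not given in the sources used here. Separate animals are not named in the labels either; the p-values then rest on the spread among these samples alone, and that spread may be technical. The genotype field set the groups. C185Gneo libraries carry titles with the name C185G and C185G libraries titles with another code. Read by title, the name C185G would fall on the C185Gneo libraries. Sftpc, the targeted gene, was lowest in the C185Gneo libraries (772 to 1079 normalized CPM), intermediate in C185G (2471 to 3059) and highest in WT (7211 to 7674).

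Lysosomes break down proteins, glycans and lipids with soluble hydrolases that work at acidic pH. The V-ATPase supplies that acidity: its V1 sector splits ATP in the cytosol, and its V0 sector carries protons through the membrane. In AEC2 the lamellar body, which stores surfactant, is a lysosome-related organelle that is acidified by the same pump and shares membrane proteins such as Lamp1 and Cd63 with lysosomes.

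In C185G against WT, 18 of the 45 genes were higher and 3 were lower, at a Benjamini-Hochberg adjusted p under 0.05 from limma fitted over all genes. Of the 28 soluble hydrolases and activators, 14 were higher, led by the proteases Ctsd (2.45-fold) and Ctsz (1.99-fold). The 5 lysosomal membrane proteins of the set held no called gene. Of 29 others outside the set, 22 were called (75.9%, beside 55.0% of all genes), 7 higher and 15 lower. The pump's V1 sector had 3 higher genes of 6, led by Atp6v1h (1.75-fold), and its V0 group 1 of 6. The 3 lower genes were the sulfatases Arsa and Arsb and the sphingomyelinase Smpd1.

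These counts stand beside a wide change of the transcriptome. In C185G against WT, 55.0% of all genes were called, 27.3% higher and 27.8% lower, where 46.7% of the 45 genes were called, 40.0% higher and 6.67% lower. No library of one group lay within the range of the other in 48.7% of all genes and in 35.6% (16) of the 45. Against C185Gneo, 57.8% of all genes were called, 29.2% higher and 28.7% lower, and 49.9% did not overlap. There, 21 of the 45 were called, 16 higher and 5 lower, and 17 did not overlap. The median log2 change of the 45 was 0.13 against WT and 0.10 against C185Gneo, where the median over all genes was -0.00044 and 0.0038. Scaling by library totals instead gave 26 higher and 3 lower of the 45 against WT. For all genes, that scaling put 59.9% of the calls on the higher side in place of 49.6%.

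The controls differed little from each other in these genes. In C185Gneo against WT, limma called 0.541% of all genes, 0.249% higher and 0.292% lower, and 6.87% did not overlap. It called 0 of the 45, with 4 at an unadjusted p under 0.05 and a smallest adjusted p of 0.378, and limma with voom weights on the recovered counts also called 0. The 4 genes whose libraries did not overlap, Gaa, Smpd1, Gm2a and Atp6v0c, were all above WT in C185Gneo. Both C185G comparisons use the same 4 C185G libraries. Calls in both were higher for 15 genes and lower for 3, and 21 of the 45 were called in neither.

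**Figure D1:**
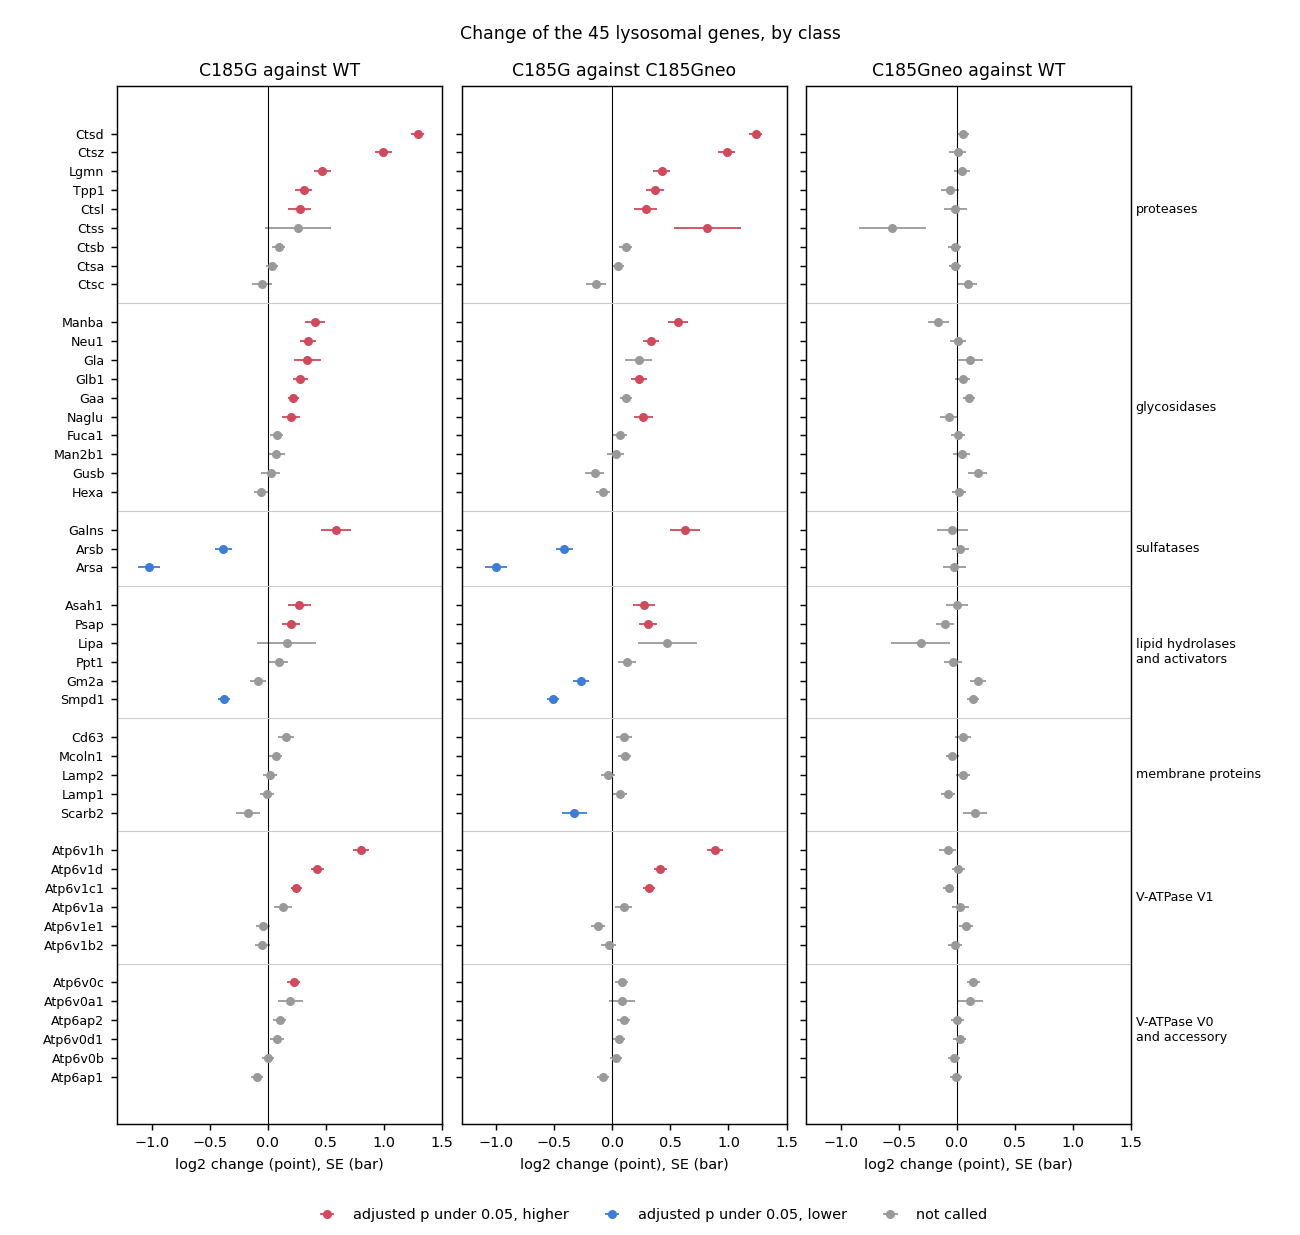
Log2 change of each of the 45 genes (point) with its SE (bar) grouped by class, with 1 panel for each C185G comparison and 1 for C185Gneo against WT. Red points were higher and blue points lower at an adjusted p under 0.05. Ctsd, Ctsz and Atp6v1h lie farthest to the right and Arsa farthest to the left in both C185G comparisons, and every point of C185Gneo against WT is grey.

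Many lysosomal genes carry an E-box-like element near their start, which transcription factors of the TFEB family bind. The promoters of 5 genes are shown because they span the changes in this set: Ctsd and Ctsz had the largest rises, Arsa and Smpd1 fell, and Lamp1 was not called. Each line gives the 250 bases before the RefSeq start, read 5′ to 3′ on the gene's own strand (GRCm38.p6). Capitals mark TCACGTG on either strand, so that CACGTGA is the same element read from the opposite strand.
Ctsd, minus strand, chr7:142387828-142388077: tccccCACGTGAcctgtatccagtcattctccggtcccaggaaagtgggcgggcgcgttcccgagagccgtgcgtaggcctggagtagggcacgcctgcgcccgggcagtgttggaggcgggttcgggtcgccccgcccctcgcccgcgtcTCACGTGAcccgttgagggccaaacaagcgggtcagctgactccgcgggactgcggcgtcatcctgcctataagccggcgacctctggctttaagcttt
Ctsz, minus strand, chr2:174439040-174439289: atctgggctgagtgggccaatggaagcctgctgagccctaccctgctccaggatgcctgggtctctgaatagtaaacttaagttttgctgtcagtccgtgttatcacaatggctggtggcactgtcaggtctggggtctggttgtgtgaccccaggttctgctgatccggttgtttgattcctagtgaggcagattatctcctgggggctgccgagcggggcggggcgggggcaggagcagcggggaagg
Arsa, minus strand, chr15:89477425-89477674: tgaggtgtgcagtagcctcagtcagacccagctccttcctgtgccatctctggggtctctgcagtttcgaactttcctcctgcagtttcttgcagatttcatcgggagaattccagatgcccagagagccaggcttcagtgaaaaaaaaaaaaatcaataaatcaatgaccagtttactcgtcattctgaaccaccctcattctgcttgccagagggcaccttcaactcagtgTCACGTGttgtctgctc
Smpd1, plus strand, chr7:105554110-105554359: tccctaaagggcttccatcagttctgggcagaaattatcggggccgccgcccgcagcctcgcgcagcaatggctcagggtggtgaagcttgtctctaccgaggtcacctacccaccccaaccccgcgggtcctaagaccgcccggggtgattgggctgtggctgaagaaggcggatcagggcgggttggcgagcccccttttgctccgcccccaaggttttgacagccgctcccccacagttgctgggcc
Lamp1, plus strand, chr8:13158911-13159160: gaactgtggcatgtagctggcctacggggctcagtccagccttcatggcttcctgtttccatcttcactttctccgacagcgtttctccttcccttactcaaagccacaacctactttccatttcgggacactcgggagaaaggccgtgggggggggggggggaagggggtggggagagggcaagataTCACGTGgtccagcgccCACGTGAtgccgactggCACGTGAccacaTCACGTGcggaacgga
The Ctsd promoter held the element at 245 and at 99 bases before the start, the latter as TCACGTGA, which matches on both strands. Lamp1 held 4 copies between 62 and 10 bases before its start, and Arsa held 1 at 17 bases. Neither Ctsz nor Smpd1 held one in this window. A match of letters is a description of the sequence and not a bound site.

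The proteases of the lysosome include the cathepsins, which cut proteins at acidic pH, the asparaginyl endopeptidase legumain (Lgmn) and the tripeptidyl peptidase Tpp1. Of 9, 5 (55.6%) were higher against WT in C185G and 0 lower, and against C185Gneo 6 (66.7%) were higher. Over all genes, 27.3% were higher and 27.8% lower against WT, and 29.2% were higher against C185Gneo. Ctsd encodes the aspartic protease cathepsin D (ENSMUSG00000007891, chromosome 7, 142375911 to 142388038, minus strand, GRCm38). Its level was 331, 329, 338 and 337 normalized CPM in WT, 335, 361, 346 and 343 in C185Gneo, and 747, 794, 897 and 830 in C185G. Every C185G library lay above every control library, and the highest control library stood at 361. The log2 change of Ctsd was 1.29 against WT (SE 0.0553, adjusted p = 1.27e-09) and 1.24 against C185Gneo.

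Ctsz encodes cathepsin X, a carboxypeptidase (ENSMUSG00000016256, chromosome 2, 174427493 to 174439039, minus strand). It stood at 196, 198, 190 and 169 normalized CPM in WT, 207, 181, 183 and 184.8 in C185Gneo, and 338, 367, 423 and 374 in C185G. The controls covered one range and the C185G libraries another, well above it. Its log2 change was 0.99 in both C185G comparisons (SE 0.0740, adjusted p = 1.23e-07 against WT). Lgmn rose by 0.47 on the log2 scale against WT and by 0.42 against C185Gneo, with no overlap. Tpp1 rose by 0.31 against WT and 0.37 against C185Gneo, and 1 C185G library at 174 normalized CPM lay inside the WT range.

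Ctsl, the cysteine protease cathepsin L, rose by 0.27 against WT (adjusted p = 0.0277), with C185G libraries from 134 to 203 normalized CPM and WT libraries from 127 to 138. That call ended without WT replicate 2 or 4 or without C185G replicate 3 or 4 (adjusted p = 0.0516 to 0.0685), and the call against C185Gneo ended without C185Gneo replicate 1 (0.0518). Without C185G replicate 4, the highest library, the log2 difference of Ctsl was 0.16 against WT and 0.18 against C185Gneo, in place of 0.27 and 0.29. Ctss, cathepsin S, which antigen-presenting cells use, was the lowest of the set's proteases. It had 4.52, 2.60, 3.46 and 2.47 normalized CPM in WT, 1.71, 2.95, 1.61 and 2.61 in C185Gneo, and 2.21, 4.24, 5.29 and 4.19 in C185G. The 3 groups overlapped, and the call against C185Gneo (log2 change 0.82, adjusted p = 0.0261) ended when C185Gneo replicate 1 or 3 or C185G replicate 2, 3 or 4 was left out (adjusted p = 0.0618 to 0.0826). Ctss against WT was not called (0.26, SE 0.288). Cathepsins A, B and C (Ctsa, Ctsb and Ctsc) were not called against WT, with log2 differences of 0.03, 0.09 and -0.05 and SEs of 0.0530, 0.0549 and 0.0854. Ctsb passed under 2 other scalings, quantile normalization (0.17, adjusted p = 0.0135) and library totals (0.17, adjusted p = 0.0105).

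Expressed per kilobase of exon, the most abundant of the 9 proteases in WT was Ctsd at 142 normalized CPM per kb. Ctsz stood at 131, Ctsc at 131, Ctsb at 101 and Ctss at 2.40. Outside the set, the aspartic protease Napsa stood higher, at 297 normalized CPM per kb in WT. Summed over the 9 proteases, the WT libraries held 2332 to 2584 normalized CPM, the C185Gneo libraries 2432 to 2537 and the C185G libraries 3132 to 3485. Macrophages, which also express cathepsins, carry CD45, and the protocol depleted CD45+ cells. The 13 macrophage markers measured, of 24 listed, summed to 202 to 245 normalized CPM in WT, 160 to 203 in C185Gneo and 227 to 248 in C185G, with 3 higher and 1 lower against WT. Cd68, itself a lysosomal membrane protein, is 1 of them, and without it the sums were 184 to 226, 140 to 181 and 190 to 210. Cd14 made up 96.8 to 126 normalized CPM of the sum in WT, 78.6 to 111 in C185Gneo and 125 to 151 in C185G. Without both, the other 11 summed to 68.3 to 99.5, 59.9 to 75.9 and 59.0 to 73.9. Cd14 was singled out after the values of the markers were seen. Both left-out markers leaned to the higher side in C185G, so their removal was bound to lower its sums against the controls. No conclusion is drawn from that. Among those other 11, Chil3 was at 1.13 to 2.62 normalized CPM in WT and 3.14 to 8.67 in C185G. Csf1r and Mertk went the other way, lower in C185G than in WT with no overlap. The 11 listed markers that were not among the measured genes, Adgre1, Marco and C1qa among them, are in none of these sums. The part of such cells in the protease values was not tested. In such bulk samples, fewer cells of a type and less RNA per cell cannot be told apart.

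Glycosidases remove sugars from glycoproteins and glycolipids in the lysosome. Of 10, 6 (60%) were higher in C185G than in WT and 0 lower, with log2 changes from 0.20 to 0.41. Against C185Gneo 4 (40%) were higher. These shares stand beside 27.3% and 29.2% of all genes. Neu1, the sialidase that takes off terminal sialic acids (ENSMUSG00000007038, chromosome 17, 34931253 to 34935953, plus strand), stood at 49.7, 47.5, 45.8 and 41.5 normalized CPM in WT. It was at 49.9, 44.8, 45.6 and 45.4 in C185Gneo and 54.4, 55.1, 62.5 and 62.0 in C185G. All C185G values were above all control values, by a log2 change of 0.34 against WT (SE 0.0701, adjusted p = 0.000925) and 0.33 against C185Gneo.

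Manba, the beta-mannosidase (ENSMUSG00000028164), changed most within this class. Its values were 29.8, 30.1, 26.6 and 28.7 normalized CPM in WT, 27.6, 24.2, 23.1 and 28.6 in C185Gneo and 34.0, 37.3, 43.0 and 38.9 in C185G. The C185G libraries again lay above both controls, with log2 changes of 0.41 against WT (SE 0.0871, adjusted p = 0.00131) and 0.57 against C185Gneo (adjusted p = 8.61e-05). Gaa, the acid alpha-glucosidase that degrades glycogen, was the most abundant glycosidase per kilobase in WT (48.3 normalized CPM per kb). It held 237, 227, 231 and 229 normalized CPM in WT, 246, 249, 254 and 243 in C185Gneo and 264, 271, 293 and 250 in C185G. The WT libraries lay under all others. The change of Gaa was 0.22 against WT (adjusted p = 0.0021) and 0.12 against C185Gneo (SE 0.0503, adjusted p = 0.059), which was not called. Gaa was called against C185Gneo without C185G replicate 4 (0.15, adjusted p = 0.0189), with quantile normalization (adjusted p = 0.0252), with library totals (adjusted p = 0.00445) and with library quality weights (adjusted p = 0.0416).

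Glb1, the beta-galactosidase, rose by 0.28 against WT and 0.23 against C185Gneo with no overlap. Gla, the alpha-galactosidase, rose by 0.34 against WT with overlapping libraries. Its call ended without WT replicate 3 or C185G replicate 3 or 4 (adjusted p = 0.0540 to 0.0700), and it was also called against C185Gneo without C185G replicate 1 (0.30, adjusted p = 0.0335) and with library totals (0.29, adjusted p = 0.0346). Naglu, which removes N-acetylglucosamine from heparan sulfate, rose by 0.20 against WT (adjusted p = 0.0465). That call was the least stable of the set: it ended without any 1 of 8 libraries, namely WT replicate 1, 3 or 4, C185Gneo replicate 3 or 4, and C185G replicate 1, 2 or 3 (adjusted p = 0.0533 to 0.141). Hexa, Gusb, Man2b1 and Fuca1, which act on hexosamine, glucuronic acid, mannose and fucose, were not called in any comparison, with log2 differences from -0.06 to 0.08 against WT. Fuca1 passed against WT only with library totals as the scaling (0.16, adjusted p = 0.0281).

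Sulfatases take sulfate groups off glycolipids and glycosaminoglycans, and the 3 measured here were all called, in opposite directions. Arsa, which acts on sulfatide (ENSMUSG00000022620, chromosome 15, 89472476 to 89477425, minus strand), stood at 20.1, 21.7, 23.4 and 19.8 normalized CPM in WT. It was at 21.3, 18.8, 21.7 and 21.9 in C185Gneo and at 12.3, 9.22, 10.4 and 9.92 in C185G. The highest C185G library was below the lowest control library, and the mean was 0.492 of that in WT. The log2 change of Arsa was -1.03 against WT (SE 0.0964, adjusted p = 1.05e-06), and Arsa fell by 1.005 against C185Gneo.

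Arsb, which acts on dermatan and chondroitin sulfate, held 23.7, 27.6, 26.8 and 25.6 normalized CPM in WT, 25.2, 26.8, 26.3 and 27.4 in C185Gneo, and 21.0, 21.6, 18.0 and 19.0 in C185G. Its C185G libraries lay below both controls, with changes of -0.38 against WT (adjusted p = 0.000647) and -0.41 against C185Gneo. Galns, which acts on keratan and chondroitin sulfate, moved the other way. It was at 9.55, 10.6, 8.14 and 9.74 normalized CPM in WT, 10.01, 9.89, 7.50 and 9.69 in C185Gneo and 11.5, 14.7, 14.6 and 16.5 in C185G. These C185G values were above every control value, by 0.59 against WT (SE 0.131, adjusted p = 0.00183) and 0.62 against C185Gneo. Per kilobase in WT, Arsa was the highest of the class at 5.77 normalized CPM per kb, with 4.30 for Arsb and 3.59 for Galns.

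Among the lipid hydrolases and their activators, 2 of 6 were higher and 1 lower against WT, and 2 were higher and 2 lower against C185Gneo. Over all genes, 27.3% were higher and 27.8% lower against WT, and 29.2% higher and 28.7% lower against C185Gneo. Smpd1, the acid sphingomyelinase (ENSMUSG00000037049, chromosome 7, 105554360 to 105558389, plus strand), had 130, 129, 127 and 122 normalized CPM in WT and 139, 134, 148 and 138 in C185Gneo. In C185G it had 96.6, 104, 99.8 and 91.0. The 3 groups did not overlap, with C185Gneo on top and C185G at the bottom. Smpd1 fell by 0.38 against WT on the log2 scale (SE 0.0513, adjusted p = 3.34e-05) and by 0.51 against C185Gneo (adjusted p = 1.65e-06), while its difference between the controls (0.14) was not called (adjusted p = 0.378).

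Asah1, the acid ceramidase that acts on the product of sphingomyelinase, was at 148, 137, 125 and 125 normalized CPM in WT, 139, 130, 133 and 131 in C185Gneo and 130, 158, 174 and 190 in C185G. The C185G libraries were spread widely, and the lowest lay among the controls. The change of Asah1 was 0.27 against WT (SE 0.0954, adjusted p = 0.0269) and 0.27 against C185Gneo. It lost its call against WT without WT replicate 3 or 4 or C185G replicate 3 or 4 (adjusted p = 0.0712 to 0.0877), and against C185Gneo without C185Gneo replicate 2 or 4 or C185G replicate 3 or 4 (0.0511 to 0.0810).

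Psap encodes prosaposin, the precursor of the saposins that present sphingolipids to their hydrolases, and was the most abundant of this class per kilobase (109 normalized CPM per kb in WT). It was at 289, 293, 302 and 314 normalized CPM in WT, 229, 288, 295 and 309 in C185Gneo and 330, 355, 343 and 350 in C185G. All C185G libraries stood above the controls. Its change was 0.20 against WT (adjusted p = 0.0392) and 0.31 against C185Gneo (adjusted p = 0.0039). The call against WT ended without WT replicate 1, 2 or 3 or C185G replicate 2, 3 or 4 (adjusted p = 0.0642 to 0.0896).

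Gm2a, the activator that lifts GM2 ganglioside out of the membrane for its hydrolase, was called lower against C185Gneo and not called against WT. The difference between the controls was not called either (0.18, adjusted p = 0.383). Its libraries held 48.7, 55.1, 49.7 and 47.2 normalized CPM in WT, 55.9, 57.6, 55.4 and 58.6 in C185Gneo, and 41.9, 47.2, 51.2 and 49.2 in C185G. WT and C185G overlapped, and C185Gneo lay above both. The log2 difference of Gm2a was -0.27 against C185Gneo (adjusted p = 0.00415) and -0.08 against WT (SE 0.0681). Ppt1, which removes palmitate from proteins, and Lipa, the acid lipase, were not called, with log2 differences of 0.09 and 0.16 against WT. Lipa had the lowest level per kilobase of the 45 in WT (0.839 normalized CPM per kb; 5.69 ± 0.693 normalized CPM, SD, n = 4), and the SE of its log2 change was 0.254.

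**Figure D2:**
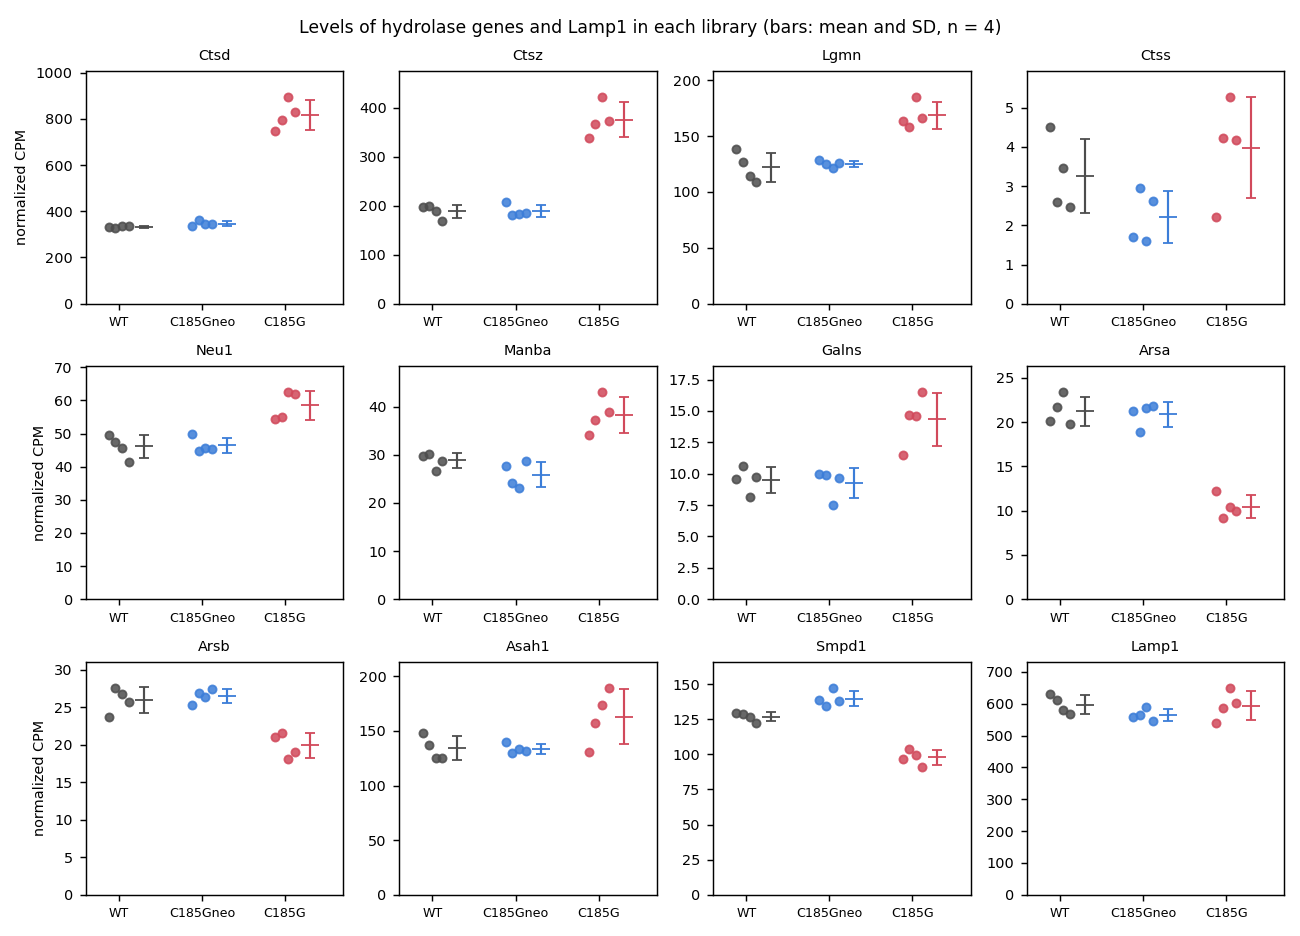
Normalized CPM in each library for 12 genes, WT in grey, C185Gneo in blue and C185G in red, with the mean and SD (n = 4) beside the points. Each panel has its own scale from 0. Ctsd and Ctsz stand apart from both controls on the high side and Arsa on the low side, Ctss overlaps between groups, and Lamp1 shows no separation.

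None of the 5 membrane proteins of the set was called against WT, where 55.0% of all genes were called. Lamp1, the most abundant glycoprotein gene of the lysosomal membrane in this set, had the highest level per kilobase of the 45 genes in WT (223 normalized CPM per kb). It was at 630, 612, 581 and 567 normalized CPM in WT, 560, 565, 590 and 546 in C185Gneo and 539, 585, 651 and 602 in C185G. The groups overlapped throughout. The log2 difference of Lamp1 against WT was -0.01 with 2 SE of 0.121, and against C185Gneo 0.07. In that second comparison it passed with quantile normalization (0.13, adjusted p = 0.0453) and with library totals (0.13, adjusted p = 0.0489).

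Lamp2, the other main glycoprotein of that membrane, differed by 0.02 from WT on the log2 scale, with an SE of 0.0604. For Cd63, a tetraspanin, the difference was 0.15 (not called, adjusted p = 0.0764). Cd63 was called without C185G replicate 1 (0.18, adjusted p = 0.0471), with quantile normalization (adjusted p = 0.0313) and with library totals (adjusted p = 0.00725). Mcoln1, a calcium-permeable channel, had a difference of 0.07 and passed with library totals only (adjusted p = 0.0457). Scarb2, a sorting receptor of the lysosomal membrane, was at 429, 462, 413 and 362 normalized CPM in WT, 486, 460, 459 and 446 in C185Gneo and 302, 349, 458 and 382 in C185G. Its groups overlapped, with C185G replicate 3 far above the other C185G libraries. Scarb2 was lower in C185G than in C185Gneo (-0.33, SE 0.106, adjusted p = 0.0175) and not called against WT (-0.17, adjusted p = 0.189), where it passed once C185G replicate 3 was left out (-0.28, adjusted p = 0.0199).

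In the proton pump, 4 of 12 genes rose in C185G against WT and 0 fell, and 3 of those 4 belong to the V1 sector. The share that rose, 33.3%, was near the 27.3% of all genes, and 27.8% of all genes fell. Atp6v1h encodes the H subunit, which regulates the pump's ATPase activity (ENSMUSG00000033793, chromosome 1, 5070018 to 5162529, plus strand). It held 86.9, 87.8, 79.1 and 79.6 normalized CPM in WT, 80.0, 83.0, 75.6 and 76.7 in C185Gneo and 127, 142, 159 and 156 in C185G. The C185G libraries lay far above both controls, which overlapped each other. The change of Atp6v1h was 0.80 against WT (SE 0.0701, adjusted p = 5.46e-07) and 0.88 against C185Gneo (adjusted p = 1.82e-07).

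Atp6v1d encodes the D subunit of the central rotor. Its libraries were at 55.7, 54.9, 51.6 and 56.5 normalized CPM in WT, 51.7, 53.9, 56.2 and 58.8 in C185Gneo and 72.1, 70.5, 78.2 and 73.0 in C185G. No C185G library reached down to a control. Atp6v1d rose by 0.43 against WT (SE 0.0563, adjusted p = 2.54e-05) and by 0.41 against C185Gneo. Atp6v1c1, a form of the C subunit that joins V1 to V0, rose by 0.25 against WT and 0.32 against C185Gneo with no overlap.

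The other 3 V1 genes were not called in any comparison. The most abundant of the sector per kilobase, Atp6v1b2 (57.0 normalized CPM per kb in WT), encodes the B subunit of the catalytic ring. It was at 333, 317, 289 and 272 normalized CPM in WT, 300, 298, 294 and 302 in C185Gneo and 281, 284, 318 and 286 in C185G. The groups overlapped, and the log2 difference from WT was -0.05 with 2 SE of 0.127. Atp6v1a, the catalytic A subunit, had a log2 difference of 0.13 (SE 0.0747) and passed with library totals as the scaling (0.21, adjusted p = 0.0215). Atp6v1e1, a stator subunit, had one of -0.04.

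In the V0 group, 1 gene of 6 was called against WT and 0 against C185Gneo. Of all genes, 55.0% and 57.8% were called. Atp6v0c, the proteolipid of the proton-carrying ring, stood at 63.7, 62.3, 66.9 and 63.9 normalized CPM in WT, 71.1, 73.0, 71.0 and 68.1 in C185Gneo and 68.6, 71.5, 78.0 and 81.7 in C185G. All WT libraries lay below the other 8, and C185Gneo and C185G overlapped. Its change was 0.22 against WT (SE 0.0583, adjusted p = 0.00552), 0.08 against C185Gneo, and 0.14 between the controls (adjusted p = 0.446). Library totals as the scaling made the C185Gneo comparison a call (0.14, adjusted p = 0.0486).

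The most abundant V0 gene per kilobase was Atp6v0d1 (75.5 normalized CPM per kb in WT), which encodes the d subunit between stalk and ring. It was at 147, 138, 131 and 126 normalized CPM in WT, 139, 139, 133 and 139 in C185Gneo and 143, 144, 152 and 132 in C185G. These overlapped, and the log2 difference from WT was 0.08 with 2 SE of 0.114. Atp6v0a1 and Atp6v0b, 2 further subunits in the membrane, and the accessory proteins Atp6ap1 and Atp6ap2 had log2 differences of 0.19, 0.00, -0.09 and 0.10 against WT, none called. Atp6v0a1 and Atp6ap2 passed without C185G replicate 1 (0.28, adjusted p = 0.0340, and 0.14, adjusted p = 0.0360). Atp6v0a1 also passed with quantile normalization (0.27, adjusted p = 0.0326). With library totals as the scaling, Atp6v0a1 (adjusted p = 0.0375), Atp6ap2 (adjusted p = 0.00867) and Atp6v0d1 (0.16, adjusted p = 0.0181) were called.

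Several V-ATPase subunits have more than 1 gene, and some forms outside the 45 moved further than any member. Of 19 other V-ATPase genes, 5 (26.3%) were higher and 6 (31.6%) lower against WT, with a median log2 change of 0.08. These shares were near the 27.3% and 27.8% of all genes. Atp6v1c2, the second form of the C subunit, was at 269, 279, 256 and 261 normalized CPM in WT, 310, 302, 284 and 299 in C185Gneo and 79.2, 69.6, 73.6 and 70.6 in C185G. It fell by 1.86 on the log2 scale against WT (SE 0.0524, adjusted p = 2.77e-11) while Atp6v1c1 was higher. Per kilobase, Atp6v1c2 went from 122 normalized CPM in WT to 33.7 in C185G, and Atp6v1c1 from 8.14 to 9.66. The rise of Atp6v1c1 was thus far smaller than the fall of Atp6v1c2, and the 2 forms together were lower in C185G. As a share of the C subunit's normalized CPM per kb, Atp6v1c2 made up 93.8% ± 0.219 of the WT level, 94.7% ± 0.169 of that in C185Gneo and 77.7% ± 1.07 of that in C185G (SD, n = 4 each).

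Atp6v0a4, a form of the a subunit best known from kidney intercalated cells, moved the other way. It was at 17.7, 21.4, 20.7 and 18.7 normalized CPM in WT, 42.4, 34.3, 43.8 and 41.2 in C185Gneo and 77.0, 109, 191 and 172 in C185G. The 3 groups did not overlap. Its change was 2.72 against WT (SE 0.237, adjusted p = 2.68e-06), 1.68 against C185Gneo and 1.04 between the controls, which was not called (adjusted p = 0.113). Its share of the a subunit's normalized CPM per kb was 5.21% ± 0.624 in WT, 9.76% ± 1.01 in C185Gneo and 24.6% ± 5.90 in C185G. Atp6v0a1 held the largest share of the a subunit in each group, 62.0% in WT, 61.1% in C185Gneo and 50.1% in C185G. These shares were looked at after the values of both genes were seen, and no test was made of them. Tmem199, an assembly factor of the pump, and Atp6v0e, an e subunit, were also higher against WT (0.72 and 0.39).

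**Figure D3:**
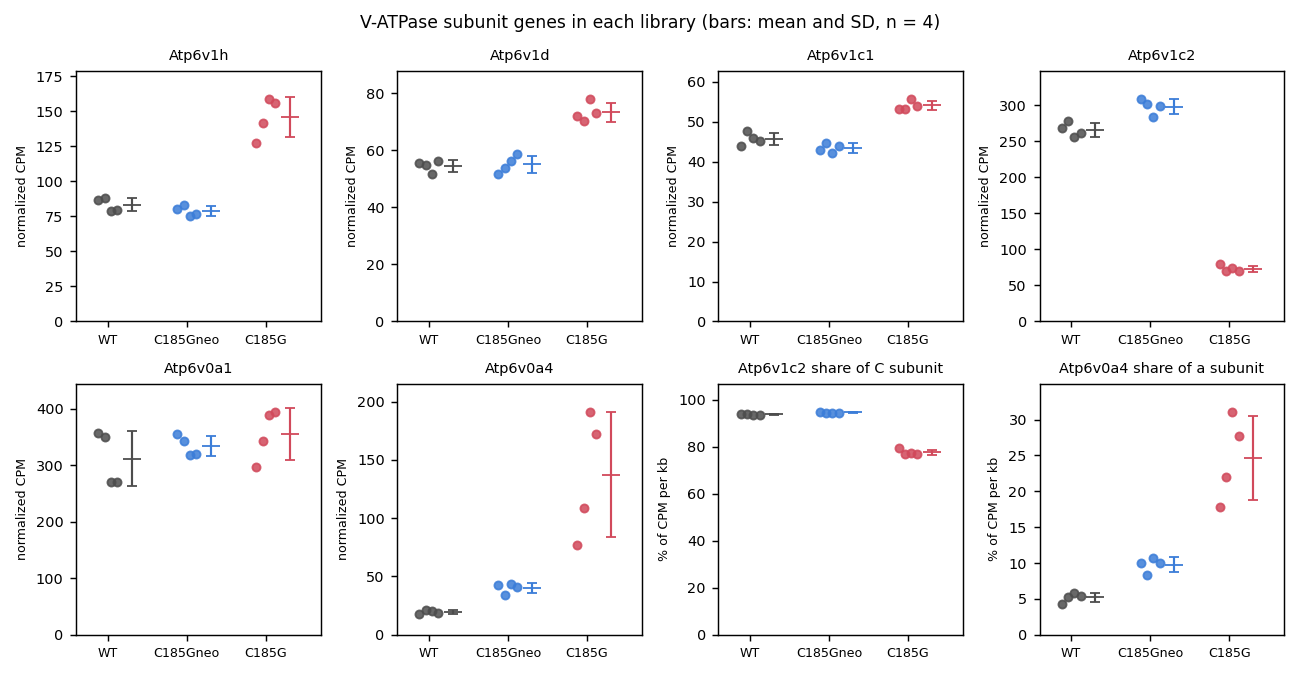
V-ATPase genes in each library, WT in grey, C185Gneo in blue and C185G in red, with the mean and SD (n = 4). The first 6 panels plot normalized CPM from 0, and the last 2 plot a form's percentage of its subunit's normalized CPM per kilobase. Atp6v1h, Atp6v1d and Atp6v1c1 are high in C185G, Atp6v1c2 is low, and the mean Atp6v0a4 share is 5.21% in WT and 24.6% in C185G.

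Lists of other genes around the lysosome put the 45 in context, where 27.3% of all genes were higher and 27.8% lower against WT. Of 33 other lysosomal hydrolases, 12 were higher and 2 lower against WT, with a median of 0.10. Ctsh, cathepsin H, rose by 0.94 (580 ± 45.9 to 1110 ± 99.3 normalized CPM, n = 4 each). Plbd2, a phospholipase B-like protein, rose by 0.74. Napsa, an aspartic protease of AEC2 that helps to process surfactant proteins, fell by 1.25 on the log2 scale.

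Other lysosomal membrane proteins leaned to the lower side, with 7 higher and 15 lower of 29 and a median of -0.23. Lamp3, a marker of lamellar bodies and of AEC2, fell by 1.74 on the log2 scale, from 1972 ± 262 to 600 ± 141 normalized CPM. Tpcn1, an endolysosomal cation channel, fell by 0.77. On the higher side were Tspan8, a tetraspanin (0.97), and Cd68 (0.94).

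Enzymes reach the lysosome through sorting machinery, and sulfatases must first be activated in the endoplasmic reticulum. Of 27 genes for these steps, 11 were higher and 8 lower, with a median of 0.07. Sort1, the sorting receptor sortilin, fell by 1.09 on the log2 scale, and Gnptab, which encodes the catalytic part of the enzyme that starts the mannose 6-phosphate tag, fell by 1.04. Gnptg, the gamma subunit of the same enzyme, fell by 0.50. Vps26a, a retromer subunit, rose by 0.64, and Sumf2 by 1.49. Sumf1, which activates sulfatases and was named after its values were seen, rose by 0.81, while the sulfatases Arsa and Arsb were lower and Galns higher.

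Among 22 genes of the TFEB family and of mTORC1 docking at the lysosome, 8 were higher and 6 lower, with a median of -0.03. Tfeb was at 19.1 ± 2.25 normalized CPM in WT and 15.6 ± 1.22 in C185G (-0.29), and its relative Mitf at 48.0 ± 4.32 and 36.0 ± 2.66 (-0.41), both called. Flcn and Fnip2, which together act on the Rag GTPases, fell by 0.81 and 0.79. Rptor, a part of mTORC1, and Lamtor3, of the complex that anchors the Rags, rose by 0.58 and 0.44. Of 5 genes listed as inhibitors of cathepsins, 4 were higher and 0 lower, with a median of 0.73. Whether each acts on the proteases of this set was not tested. Serpinb6a rose by 1.49, Cstb, the cystatin B that binds cysteine cathepsins, by 1.48, Serpinb6b by 0.73 and Serpinb1a by 0.68.

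**Figure D4:**
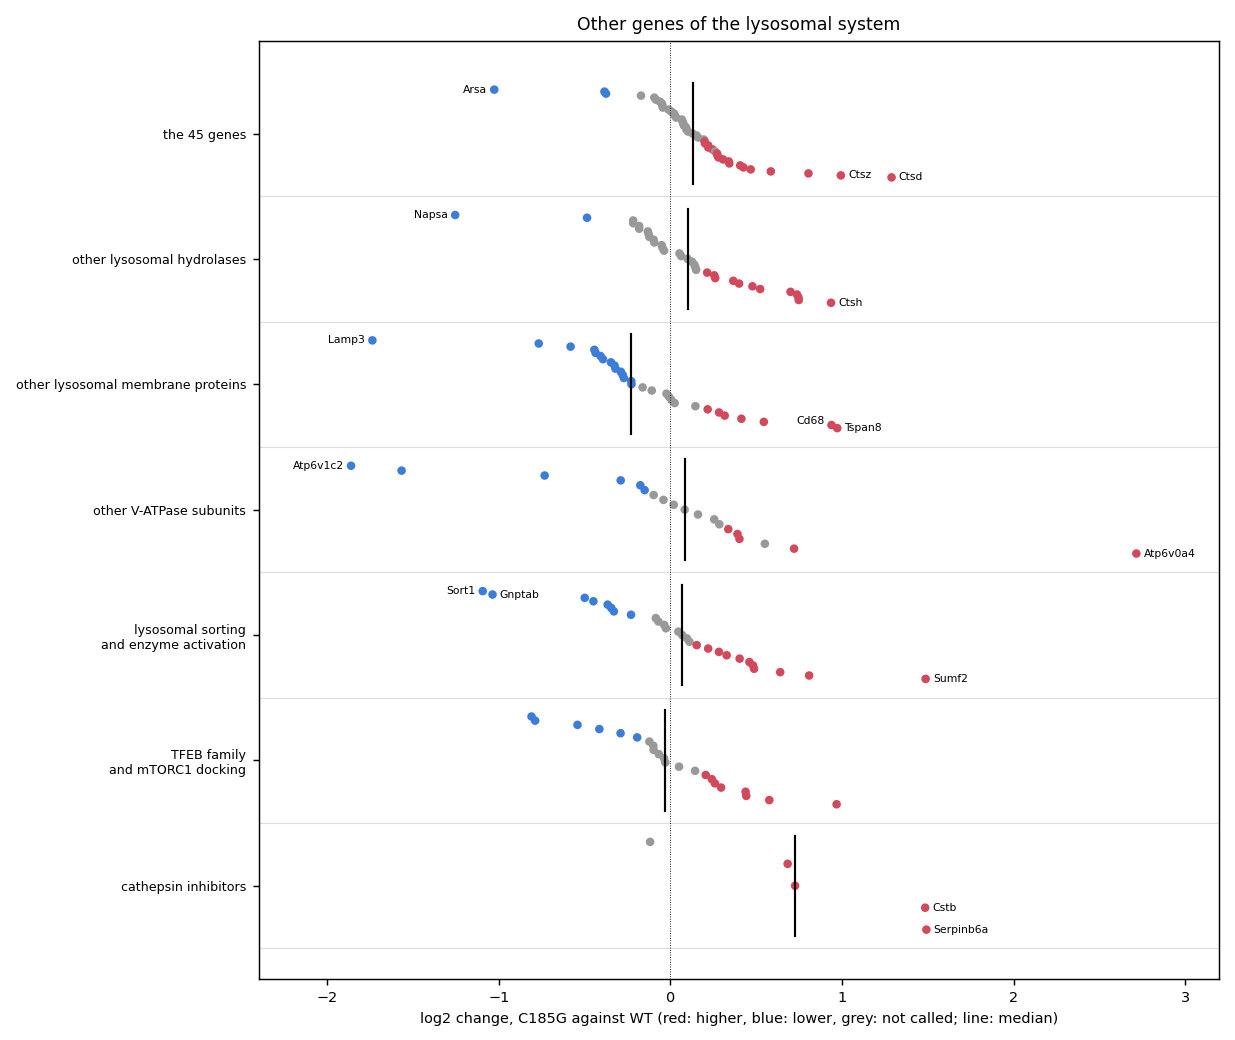
Log2 change in C185G against WT for the 45 genes and for 6 lists of other genes of the lysosomal system. Each point is a gene (red higher, blue lower, grey not called), and the vertical line is the list's median. Medians run from -0.23 for the other membrane proteins to 0.73 for the cathepsin inhibitors, and Atp6v0a4 (2.72) and Atp6v1c2 (-1.86) lie at the ends.

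The E-box-like element was searched in the promoter windows of all genes in the RefSeq table, from 250 bases before to 50 bases after each start, on both strands. TCACGTG was found in 13 of the 39 member genes with a window (33.3%), in 4.29% of the 27025 genes in the table, and in 6.58% of the 11463 of them measured here. The shorter core CACGTG, which TCACGTG contains, was in 14 (35.9%) and in 8.09% of the genes in the table. The palindrome TCACGTGA, which contains TCACGTG on both strands, was in 6 (15.4%) and in 1.12%. The 13 genes with TCACGTG were Ctsa, Ctsd, Lgmn, Gaa, Gla, Glb1, Naglu, Arsa, Lamp1, Mcoln1, Atp6v1a, Atp6v0b and Atp6v0d1. For Lgmn the element lay at an alternative start, 721 bases from the nearest GENCODE start. Ctsb, Galns, Asah1, Atp6v1b2, Atp6v1c1 and Atp6v1h had no window in the table.

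The members were also split by the element, with no test of the split. With TCACGTG, 6 of 13 were higher and 1 lower against WT, and the median log2 change was 0.13. Without it, 8 of 26 were higher and 2 lower, and the median was 0.10. Among the 6 with no window, 4 were higher. Over all measured genes with a window, 28.6% of those with the element were higher and 27.2% lower, beside 28.9% and 28.4% of those without. Of the genes with printed promoters, Ctsd rose, Arsa fell and Lamp1 was not called among those with the element. Of those without it, Ctsz rose and Smpd1 fell. The part of the element in these changes was not tested.

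**Figure D5:**
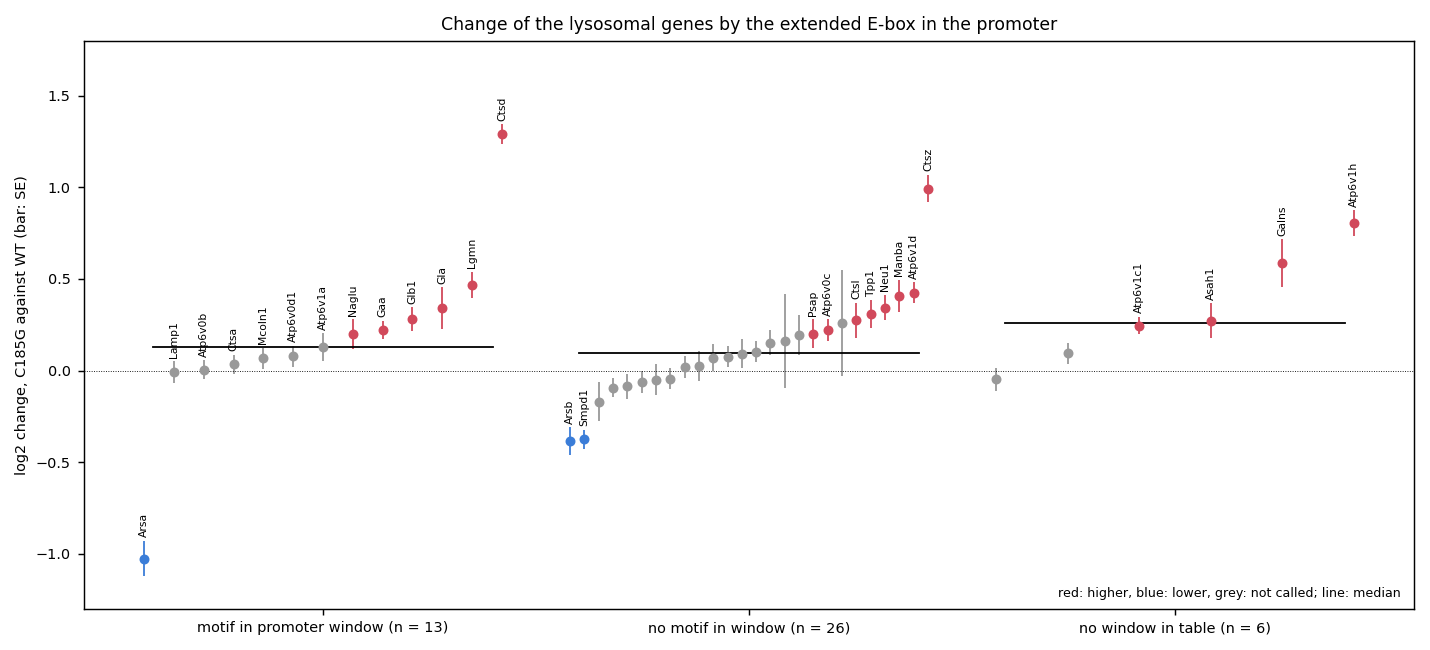
Log2 change in C185G against WT (point, SE as bar) of the 45 genes, split by whether the promoter window holds the extended E-box (13 genes), does not (26) or is missing from the table (6). Red points were higher and blue lower, and horizontal lines are medians. Ctsd and Arsa, at opposite ends, both fall in the column with the element.

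The libraries held 15659512 to 23444287 counts each, and the lowest count of any member in any library was 27, in Ctss. AEC2 markers were present at high levels in all libraries, and all 12 were lower in C185G than in WT, with summed levels of 34914 to 40955 normalized CPM in WT, 31611 to 35777 in C185Gneo and 14794 to 17660 in C185G. Without Sftpc, the targeted gene, the other 11 summed to 27703 to 33502, 30839 to 34698 and 11734 to 14813. Neutrophil and monocyte markers were higher for 5 of 9 and lower for 1 against WT. Their summed level was 776 to 1250 normalized CPM in WT, 465 to 747 in C185Gneo and 625 to 1109 in C185G, of which Lcn2, singled out after its values were seen, made up 750 to 1206, 433 to 708 and 551 to 983. The other 8 summed to 26.7 to 49.1, 30.7 to 47.9 and 38.9 to 126. Mesenchymal markers were higher for 1 of 12 against WT and 10 of 12 against C185Gneo. Endothelial markers were lower for 6 of 11 against WT, lymphocyte markers for 2 of 3 and club and ciliated markers for 3 of 10, with none higher. Of 10 alveolar type 1 markers, 2 were higher and 2 lower. Over all genes, 27.3% were higher and 27.8% lower against WT, and 29.2% were higher against C185Gneo. The counts against WT for club and ciliated, alveolar type 1 and mesenchymal markers lay near or under these shares. The part of such differences in the changes of the lysosomal genes was not tested.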

How the data were processed

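RNA of isolated AEC2 was measured in 12 mouse libraries, grouped by the genotype field. Per the labels' protocols, lungs were digested with Dispase and DNase, adherent (mesenchymal) cells were left on plastic, and magnetic beads took out CD45+ cells. STAR, limma and mm10 are named, per the submitters' processing notes. The counter, its annotation and its use of strand were not given in the sources used here, so genes that overlap others are less certain. The authors deposited log2 values, 1 file per library. From the values, 0.5 was added to each count before scaling by 1 factor per library. Whole reads were recovered for 100% of values within 1e-06, giving 15659512 to 23444287 counts per library. The unit being log2, limma was used and no count model.

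Normalized CPM are these counts on the authors' scaling, and changes are relative to the bulk of genes. Values per kilobase divide by GENCODE exon length. GENCODE M21 (GRCm38) named 16017 genes and left 63 unnamed. All 12 libraries entered 1 fit (limma 3.58.1, trend and robust, R 4.3.3), with Benjamini-Hochberg adjustment over 16080 genes and calls under 0.05. Data handling used data.table (version 1.17.8), pandas 2.3.3 and Python 3.11.15, and figures matplotlib 3.10.9. The fit was tested on simulated data.

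The members and lists were chosen with earlier results of these data known. Values in every library are given for the 2 members of each class with the smallest adjusted p against WT among those called, those called against their class, the 5 largest called changes per comparison and the most abundant per kilobase in each class. From other lists, up to 4 called genes with the smallest adjusted p are named, with any called against most of that list. Some genes that this rule selects are not reported here. Genes outside this rule are marked as named after their values were seen.

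Alternatives were no mean-variance trend, quantile, library-total and median-of-ratios scaling, an added count of 2, voom weights, a fit of only the 8 libraries compared, a minimum mean of 5 CPM, a replicate block, library quality weights and each library left out. Promoter windows came from RefSeq (GRCm38.p6). Replicates of a group differed by more than counting noise in all 18 pairs (chi-square over its degrees of freedom 5.58 to 23.8).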

Additional observations from a re-analysis of the deposited data

Results flagged for a closer look

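In groups of 4, a library was singled out when its gap to the nearest other library, divided by the group's range, passed Dixon's 95% critical value. Of 135 groups tested (45 genes in 3 genotypes), 9 did so, where chance gives about 5%, or 1 in 20.

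In C185Gneo, replicate 1 was high for Atp6v1a (311 normalized CPM, others 266 to 272), Ctsz (207, others 181 to 184.8) and Neu1 (49.9, others 44.8 to 45.6), and low for Lipa (2.27, others 5.57 to 5.89). C185Gneo replicate 2 was low for Ctsc (717, others 835 to 845). C185Gneo replicate 3 was low for Galns (7.50, others 9.69 to 10.01) and Atp6v0d1 (133, others 139 to 139). In C185G, replicate 2 was low for Atp6v0b (87.7, others 96.8 to 98.2) and replicate 3 was high for Atp6v1b2 (318, others 281 to 286). No WT library was singled out for any of the 45 genes.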

How the results depend on the processing

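Over the 22 alternatives, no called change of the 45 genes reversed. Of the genes called against WT, 13 of 18 higher and 3 of 3 lower passed in every alternative that tested them, and against C185Gneo 13 of 16 higher and 5 of 5 lower. The calls lost somewhere were those of Ctsl, Gla, Naglu, Asah1 and Psap against WT and of Ctsl, Ctss and Asah1 against C185Gneo. Naglu against WT was also lost without the mean-variance trend, with quantile or median-of-ratios scaling, with quality weights and with only the 8 libraries compared, Asah1 with only those 8, and Psap without the trend; the cause was not tested. With each library left out, 17 to 23 of the 45 were called against WT, 19 to 24 against C185Gneo and 0 to 0 between the controls. A minimum mean of 5 CPM removed Ctss.

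Over all genes, the count for C185Gneo against WT depended on the fit, with 87 called (40 higher, 47 lower). Without the trend it was 54 (26 lower), and with quality weights 162 (80 higher, 82 lower). Leaving out 1 library gave 40 to 112 called, 21 to 54 higher and 18 to 58 lower. The cause was not tested.

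The replicate numbers did not pair the libraries: same-numbered libraries correlated from -0.126 to 0.182 in their deviations from group means (12 pairs). With the replicate block, 20 of the 45 were called in each C185G comparison and 0 between the controls, Asah1 was lost in both (adjusted p = 0.0557 and 0.0520), and 27 genes were lower in C185Gneo than in WT. Depth limits Ctss and Lipa most, which were under 100 counts in at least 1 library.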
